A study of Mus musculus with 4 samples.

Results

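The Toll-like receptor, NF-kB and inflammasome pathway was examined in mouse livers as a list of 42 genes taken by symbol. All 42 were found among the 22103 entries of the expression table. They are 10 Toll-like receptors, 8 genes of the co-receptor, adaptors and kinase relay, 3 genes of the IKK complex, 4 NF-kB subunits, 4 NF-kB inhibitors, 7 inflammasome genes and 6 cytokines or cytokine receptors. Livers of 2 WT mice were compared with livers of 2 Brg1LKO mice, which the labels call KO. In the Brg1LKO mice the floxed *Smarca4* gene (*Smarca4* f/f), which encodes the chromatin remodeler Brg1, is deleted by *Alb*-Cre, a recombinase driven by the albumin promoter of hepatocytes. All 4 adult male mice had taken alcohol for 15 days, so no liver without alcohol enters the comparison. The study's methods describe an ethanol liquid diet closed by a single gavage (NIAAA model). The comparison asks which of these genes differ in the alcohol-exposed liver when hepatocytes lack Brg1. *Smarca4* was at 1.79 and 1.95 FPKM (sequenced fragments scaled by transcript length and library size) in WT and at 0.608 and 0.579 FPKM in Brg1LKO livers, a log2 fold change of -1.50 (SE 0.34, unadjusted p = 0.00055 in limma). The study describes the deletion as specific to hepatocytes, and *Smarca4* in the other liver cells was not measured here. In whole liver fewer cells of a type and less RNA per cell cannot be told apart.

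Toll-like receptors recognize microbial molecules at the cell surface or, for the nucleic acid sensors, inside endosomes. They signal through the adaptors MyD88 and TRIF to IRAK kinases and the ubiquitin ligase TRAF6, which activate the IKK complex. IKK marks the inhibitory IkB proteins for destruction, and the freed NF-kB dimers switch on cytokine genes as well as the genes of their own inhibitors. Inflammasomes are sensor and adaptor assemblies that activate caspase-1, which matures IL-1b and IL-18 and cleaves the pore protein gasdermin D. In alcoholic liver disease the pathway is known for its response to gut-derived endotoxin, in Kupffer cells (the resident macrophages of the liver) and in hepatocytes.

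Because NF-kB acts on genes of its own pathway, the promoter windows of the 42 genes were searched for the NF-kB consensus of 10 bases on both strands. A window of 250 bases before a RefSeq start (GRCm38.p6) was at hand for 35 of the 42 genes, and 9 of the 35 (25.7%) held a match in at least 1 window, beside 4.46% of all 27025 genes and 3.90% of all 32851 windows. The 9 genes are *Tlr2*, *Tlr3*, *Nfkb2*, *Nfkbia*, *Nfkbie*, *Tnfaip3*, *Nlrp3*, *Casp4* and *Il1r1*. The windows of 4 genes described further on are shown 5′ to 3′ on the strand of the gene, with the bases that match in capitals. *Tnfaip3*, *Tlr2* and *Il1r1* are shown because their levels separated the livers by replicate number, and *Nfkbia* because it is the classical feedback inhibitor. *Irak3*, whose level followed the replicate number too, held no match in its windows. *Tlr3*, *Nfkb2*, *Nfkbia*, *Nfkbie*, *Nlrp3* and *Casp4* held a match but were not more than 1.5-fold higher in replicate 1 of both genotypes. A link between a match and the order of livers was not tested. The *Tnfaip3* window (chr10:19015411-19015660, minus strand) held matches that began 125 and 12 bases before the RefSeq start. The *Tlr2* match began 173 bases before the RefSeq start, and only the bases ahead of the transcript used in the table are shown (chr3:83841768-83841858, minus strand). In the *Il1r1* window (chr1:40266336-40266585, plus strand) the match began 232 bases before the start, and in the *Nfkbia* window (chr12:55492648-55492897, minus strand) it began 29 bases before the start. A match describes these letters and is not a measured binding site.
Tnfaip3: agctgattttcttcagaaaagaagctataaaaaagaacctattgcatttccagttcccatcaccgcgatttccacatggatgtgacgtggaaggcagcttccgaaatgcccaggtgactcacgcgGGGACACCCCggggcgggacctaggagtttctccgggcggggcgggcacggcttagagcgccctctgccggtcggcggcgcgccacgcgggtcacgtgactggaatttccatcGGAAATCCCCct
Tlr2: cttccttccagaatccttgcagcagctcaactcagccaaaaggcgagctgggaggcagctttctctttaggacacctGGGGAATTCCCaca
Il1r1: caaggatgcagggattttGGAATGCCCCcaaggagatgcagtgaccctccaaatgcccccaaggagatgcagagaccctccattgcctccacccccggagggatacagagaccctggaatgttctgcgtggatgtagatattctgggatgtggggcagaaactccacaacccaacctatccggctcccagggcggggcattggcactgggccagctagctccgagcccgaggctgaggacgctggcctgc
Nfkbia: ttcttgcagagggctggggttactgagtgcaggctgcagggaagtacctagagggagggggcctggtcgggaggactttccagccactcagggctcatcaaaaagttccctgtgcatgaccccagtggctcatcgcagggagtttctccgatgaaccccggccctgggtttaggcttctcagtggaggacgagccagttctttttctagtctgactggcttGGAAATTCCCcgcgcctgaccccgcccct

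The highest levels belonged to kinases, cytokine receptors, an inhibitor and the inflammasome gene *Nlrp12*, and all 10 Toll-like receptors lay below them. On the FPKM scale, which is per transcript length, 6 of the 42 genes had a mean over the 4 livers of at least 10, 16 lay between 1 and 10, 13 between 0.1 and 1, and 7 were under 0.1. *Chuk* (the kinase IKK alpha) had the highest mean level, at 23.0 FPKM, followed by *Il1r1* (the IL-1 receptor) at 19.7 and *Irak1* at 19.0. The ranges of these 3 genes over the livers overlapped, so their order is not resolved. *Tnfrsf1a* (a TNF receptor), *Nfkbia* and *Nlrp12* followed at 12.0, 10.5 and 10.4 FPKM, likewise with overlapping ranges. Of the Toll-like receptors, the highest was *Tlr2* at 0.843 FPKM, and none reached a mean of 1. *Tlr1*, *Tlr4*, *Tlr6*, *Tlr9*, *Nlrp3*, *Casp4* and *Tnf* were under a mean of 0.1 FPKM and were not tested, which left 35 genes.

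**Figure D1:**
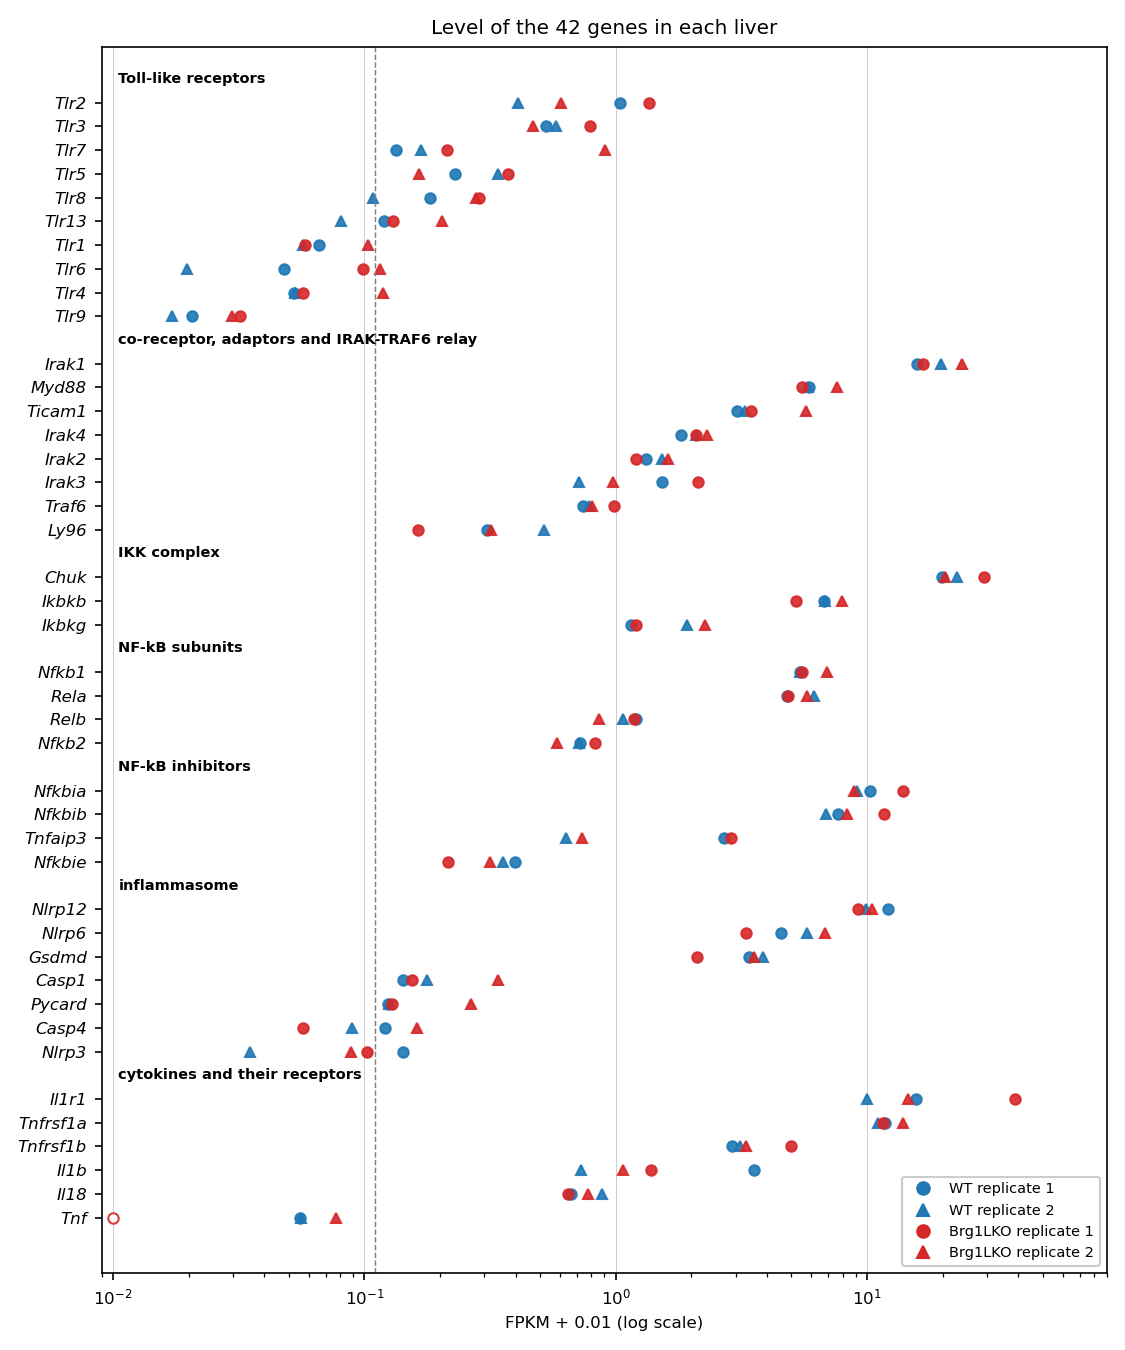
Level of each of the 42 genes in each of the 4 livers (x axis: FPKM + 0.01, log scale; y axis: genes by role, in the order of their mean). Blue marks WT and red Brg1LKO livers, circles replicate 1 and triangles replicate 2, an open symbol a value of 0, and the dashed line 0.1 FPKM. *Chuk*, *Il1r1* and *Irak1* lie highest, and *Tnfaip3* divides the livers by replicate number.

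With genotype, 1 of the 35 genes tested changed past the threshold used here, an unadjusted p under 0.05 in limma and more than a 2-fold change. The study set the same limits for p and fold on read counts tested with DESeq. This gene was *Tlr7*, which was higher in the Brg1LKO livers, and no gene of the list was called lower. At the same threshold 121 of 12346 genes tested in the whole table (0.980%) were called, 54 higher (0.437%) and 67 lower (0.543%). No gene of the list and none of the whole table had a Benjamini-Hochberg adjusted p under 0.05 in limma, while 1 of the 35 and 247 of the 12346 (2.00%) had an unadjusted p under 0.05. The values of the 2 groups did not overlap for 11 of the 35 genes (31.4%), 10 higher and 1 lower in Brg1LKO livers, beside 20.7% of all genes tested (10.7% higher and 10.0% lower). The share in all genes rose to 28.9% with median-ratio rescaling and 29.4% with quantile normalization, where 13 and 12 of the 35 did not overlap. The 10 genes were *Tlr7*, *Tlr8*, *Tlr13*, *Ticam1*, *Irak4*, *Traf6*, *Nfkb1*, *Nfkbib*, *Pycard* and *Tnfrsf1b*, and the 1 lower gene was *Nfkbie*. For *Pycard* the nearest livers of the 2 groups held equal estimated reads and differed by library total only. The median log2 fold change of the 35 genes was 0.15, with 22 above 0 and 13 below, and that of all genes tested was -0.02, with 46.1% above 0. In single livers the median of the 35, set against the WT mean, was -0.0067 and 0.0067 in WT and 0.058 and 0.13 in Brg1LKO (log2 scale). For 33 of the 35 genes the livers of 1 genotype lay farther apart on the log2 scale than the 2 group means did, as for 88.2% of all genes tested.

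**Figure D2:**
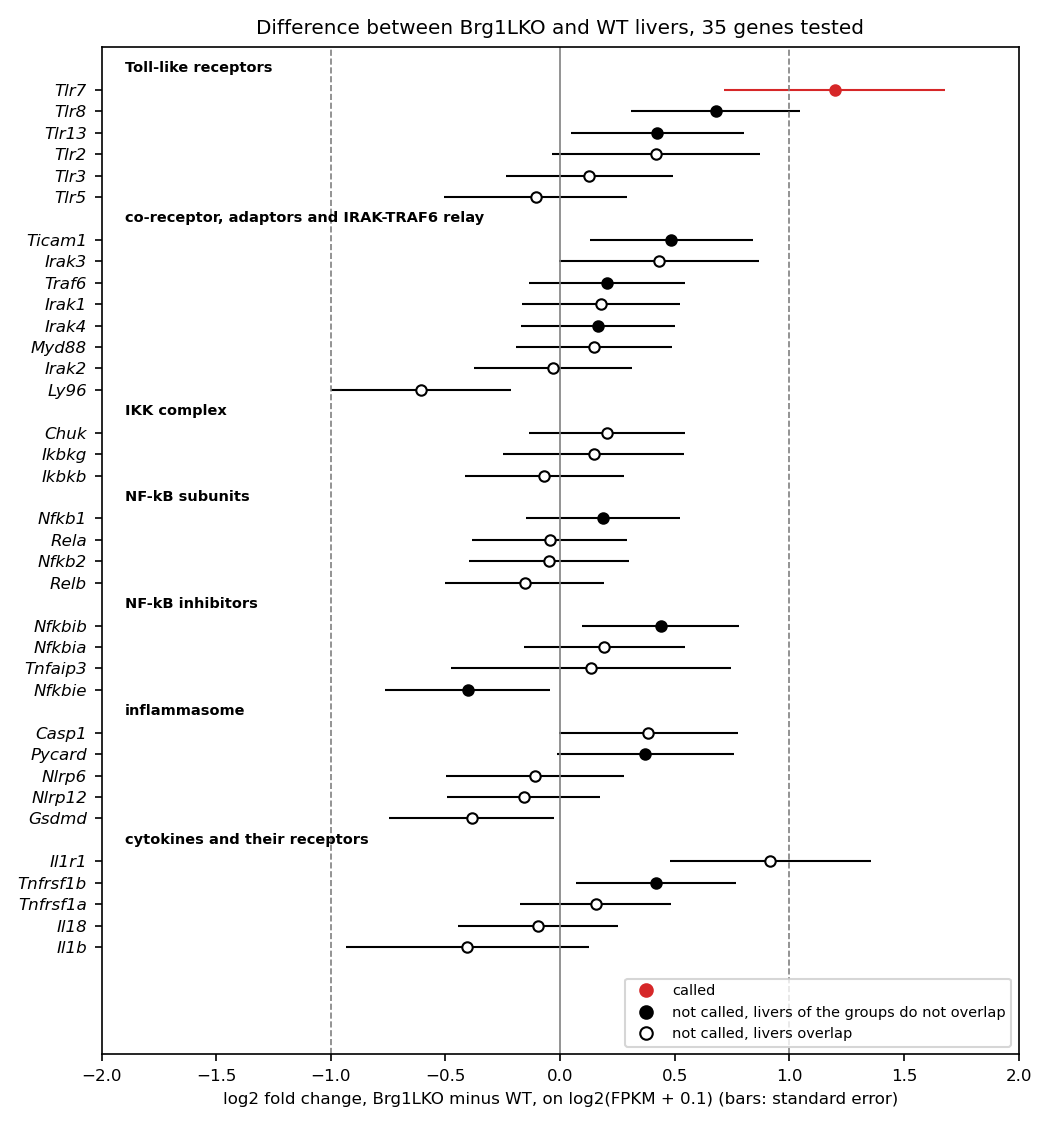
Log2 fold change (Brg1LKO minus WT, on log2(FPKM + 0.1)) of the 35 genes tested, with the limma standard error as bars. Red marks the 1 gene called (*Tlr7*, 1.20), filled black symbols genes whose livers did not overlap, open symbols genes whose livers overlapped, and dashed lines a 2-fold change.

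Of the 10 Toll-like receptors, 6 were tested, 1 was called and 3 did not overlap between the groups, all higher in Brg1LKO livers, beside 20.7% of all genes tested for groups apart. These 3 sense RNA inside endosomes. Of the 4 receptors too low to test, *Tlr4*, *Tlr6* and *Tlr9* were higher in both Brg1LKO livers, on few reads. For *Tlr4* this rested on 15 reads in Brg1LKO replicate 1 beside 14 in each WT liver. The share among all genes this low was not counted. *Tlr7*, an endosomal sensor of single-stranded RNA (chrX:167304929-167330528, minus strand, 5 exons), was at 0.124 and 0.157 FPKM in WT and at 0.204 and 0.898 FPKM in Brg1LKO livers. Those levels correspond to 39, 49, 62 and 254 reads. Brg1LKO replicate 2 stood far above the other 3 livers, which lay close together. The log2 fold change was 1.20 (SE 0.48, unadjusted p = 0.026, limma adjusted p = 1.00), and it was 0.34 without Brg1LKO replicate 2, where the call was lost. The call was also lost without WT replicate 1 (1.10) or WT replicate 2 (1.30), with median-ratio rescaling (unadjusted p = 0.059 in limma), with no filter on low values (unadjusted p = 0.091 in limma) and with a pseudocount of 1 (0.41). *Tlr8*, its neighbor on the X chromosome (chrX:167242696-167264286, minus strand, 3 exons), was at 0.173 and 0.0985 FPKM in WT and at 0.276 and 0.269 FPKM in Brg1LKO livers. In *Tlr8* the Brg1LKO livers were close to each other and above both WT livers, with a log2 fold change of 0.68 (SE 0.37, unadjusted p = 0.087, limma adjusted p = 1.00).

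*Tlr13*, a sensor of bacterial ribosomal RNA, was at 0.110 and 0.0709 FPKM in WT and at 0.120 and 0.193 FPKM in Brg1LKO livers. Its WT replicate 1 and Brg1LKO replicate 1 were nearly level, and the log2 fold change was 0.42 (SE 0.38, unadjusted p = 0.28, limma adjusted p = 1.00). It ranged from 0.22 to 0.63 as livers were left out and from 0.085 to 0.81 over the other settings. *Tlr9*, the sensor of CpG DNA, had 3 and 2 reads in WT and 6 and 5 reads in Brg1LKO livers. The ratio of its reads per depth was 2.35 (exact 95% interval 0.752 to 8.62, counting error only). *Tlr3*, the sensor of double-stranded RNA, was at 0.517 and 0.567 FPKM in WT and at 0.777 and 0.458 FPKM in Brg1LKO livers. The WT values of *Tlr3* lay between the Brg1LKO values.

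Of the surface receptors, *Tlr2* and *Tlr5* were tested, and the groups overlapped for both. *Tlr2*, the receptor of bacterial lipoproteins (chr3:83836272-83841767, minus strand, 3 exons), was at 1.03 and 0.399 FPKM in WT and at 1.35 and 0.594 FPKM in Brg1LKO livers. The livers numbered 1 were above the livers numbered 2 in both genotypes, and the log2 fold change of 0.42 (SE 0.45, unadjusted p = 0.37, limma adjusted p = 1.00) ran from -0.17 to 1.01 as livers were left out. *Tlr4*, the endotoxin receptor, had 14 and 14 reads in WT livers and 15 and 32 reads in Brg1LKO livers. Its level was 0.0424, 0.0430 and 0.0471 FPKM in 3 livers and 0.108 FPKM in Brg1LKO replicate 2. The ratio of its reads per depth was 1.79 (exact 95% interval 1.10 to 2.97, counting error only, which leaves out the spread between livers). *Ly96*, which encodes MD-2, the partner of TLR4 in binding endotoxin, was at 0.297 and 0.507 FPKM in WT and at 0.154 and 0.310 FPKM in Brg1LKO livers. Replicate 2 was the higher liver of each genotype for *Ly96*, and the groups overlapped.

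*Tlr6* and *Tlr1*, which pair with TLR2, rested on few reads. *Tlr6* was at 0.0380 and 0.00962 FPKM in WT and at 0.0885 and 0.106 FPKM in Brg1LKO livers. These values step as 4, 1, 9 and 10 whole reads, or a multiple of them, and at those numbers the ratio per depth was 4.05 (exact 95% interval 1.46 to 13.9, counting error only). *Tlr1* was at 0.0559 and 0.0472 FPKM in WT and at 0.0482 and 0.0935 FPKM in Brg1LKO livers. *Tlr5*, the flagellin receptor, was at 0.220 and 0.329 FPKM in WT and at 0.364 and 0.155 FPKM in Brg1LKO livers, and its groups overlapped.

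Macrophage markers are given beside these receptors. Among the receptors tested, *Tlr7* and *Tlr13* were highest in Brg1LKO replicate 2. *Tlr2*, *Tlr3*, *Tlr5* and *Tlr8* were highest in Brg1LKO replicate 1. The summed level of 11 Kupffer cell and macrophage markers was 48.8 and 49.9 FPKM in WT livers, 63.2 FPKM in Brg1LKO replicate 1 and 139 FPKM in Brg1LKO replicate 2, and none of the markers was at 0. Of these 11, 9 did not overlap between the groups, all higher in Brg1LKO, beside 10.7% of all genes tested. Of the 11, 3 were called higher in limma (*Cd68*, *Vsig4* and *Cd5l*), beside 0.437%. The highest marker, *C1qa*, a complement subunit made by macrophages, was at 12.0 and 11.7 FPKM in WT and at 14.1 and 27.1 FPKM in Brg1LKO livers. The summed level of 7 monocyte markers was 5.11 and 5.70 FPKM in WT and 5.98 and 13.3 FPKM in Brg1LKO livers. Most of this sum was *Lyz2*, at a mean of 6.69 FPKM. Only 3 of the 7 were tested, and none was called. For 1 of the 3 the groups were apart with Brg1LKO higher and for 1 with Brg1LKO lower, beside 20.7% of all genes tested in either direction. The part of these cells in the values of *Tlr7*, *Tlr8* and *Tlr13* was not tested. Brg1LKO replicate 2 was the highest of the 4 livers for 19 of the 42 genes, Brg1LKO replicate 1 for 14, WT replicate 1 for 5 and WT replicate 2 for 4. For the 35 genes tested these counts were 14, 13, 4 and 4. Among all genes tested, the shares in the same order of livers were 41.0%, 12.2%, 4.70% and 42.1%. After median-ratio rescaling, chosen after seeing the data, the 42 genes were highest in Brg1LKO replicate 2 for 14, in Brg1LKO replicate 1 for 20, in WT replicate 1 for 6 and in WT replicate 2 for 2, beside 30.0%, 30.1%, 15.9% and 24.0% of all genes tested.

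**Figure D3:**
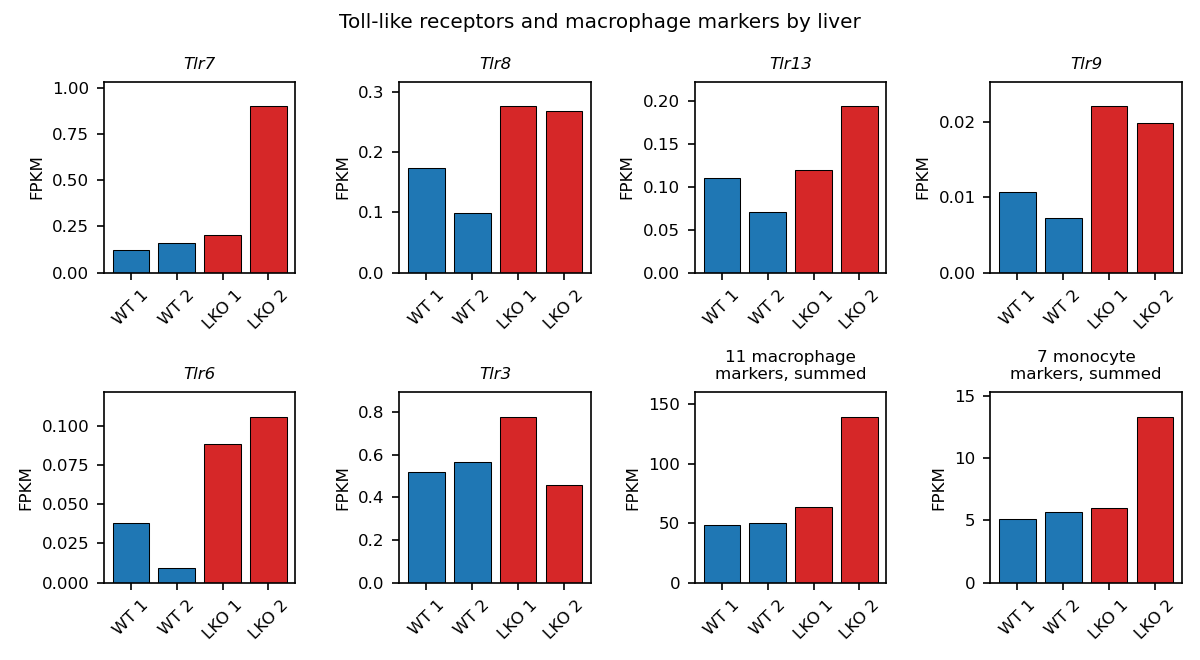
Level in each liver (y axis: FPKM, from 0) of 6 Toll-like receptor genes and summed level of the macrophage and monocyte markers, with WT livers in blue and Brg1LKO livers in red. Brg1LKO replicate 2 is the highest bar for *Tlr7* (0.898 FPKM) and for the macrophage sum (139 FPKM), while *Tlr8* stands at 0.276 and 0.269 FPKM in the Brg1LKO livers.

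In the adaptor and kinase relay, 3 of 8 genes did not overlap between the groups, beside 20.7% of all genes tested, and none was called. *Ticam1*, which encodes the adaptor TRIF, was at 3.03 and 3.25 FPKM in WT and at 3.45 and 5.68 FPKM in Brg1LKO livers. *Irak4*, the kinase that starts the relay, was at 1.80 and 2.07 FPKM in WT and at 2.07 and 2.29 FPKM in Brg1LKO livers. *Traf6* was at 0.731 and 0.769 FPKM in WT and at 0.970 and 0.795 FPKM in Brg1LKO livers. For *Irak4* and *Traf6* the nearest livers of the 2 groups were close to each other. *Irak1*, the most abundant of the relay, was at 15.7 and 19.7 FPKM in WT and at 16.7 and 23.8 FPKM in Brg1LKO livers, with a log2 fold change of 0.18 (SE 0.34, unadjusted p = 0.61, limma adjusted p = 1.00). *Myd88*, the adaptor shared by most Toll-like receptors and the IL-1 receptor, was at 5.85 and 5.79 FPKM in WT and at 5.52 and 7.55 FPKM in Brg1LKO livers, and *Irak2* lay between 1.19 and 1.60 FPKM in all 4. Neither gene separated the groups. The exons of *Myd88*, *Irak1*, *Irak2*, *Irak3* and *Irak4* overlap other genes in the annotation, so part of their reads is uncertain. The same holds for *Tlr3*, *Ikbkb*, *Nfkbib*, *Nlrp12* and *Pycard*.

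Of the 3 genes of the IKK complex and the 4 NF-kB subunits none was called. For 1 of them the groups did not overlap, beside 20.7% of all genes tested. *Chuk* was at 19.8 and 22.7 FPKM in WT and at 29.2 and 20.4 FPKM in Brg1LKO livers, with a log2 fold change of 0.20 (SE 0.34, unadjusted p = 0.56, limma adjusted p = 1.00) that fell to -0.06 without Brg1LKO replicate 1. *Ikbkb*, the catalytic partner IKK beta, ranged from 5.19 to 7.96 FPKM, with the lowest and the highest value in Brg1LKO livers. *Ikbkg*, the scaffold subunit NEMO, was at 1.14 and 1.91 FPKM in WT and at 1.20 and 2.25 FPKM in Brg1LKO livers, so it too was higher in replicate 2 of each genotype. Its exons overlap *G6pdx* on the opposite strand. *Nfkb1*, the gene of p105 and p50, was at 5.39 and 5.40 FPKM in WT and at 5.51 and 6.88 FPKM in Brg1LKO livers. Its groups were apart by a small step, and the log2 fold change was 0.19 (SE 0.33, unadjusted p = 0.58, limma adjusted p = 1.00). *Rela*, the p65 subunit, lay between 4.79 and 6.15 FPKM, *Relb* between 0.850 and 1.20 FPKM and *Nfkb2* between 0.572 and 0.814 FPKM, each with overlapping groups.

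Of the 4 inhibitors of NF-kB, several of which are NF-kB targets themselves, none was called. For 2 of the 4 the groups did not overlap, in opposite directions, beside 20.7% of all genes tested. *Nfkbia*, the gene of IkB alpha, was at 10.3 and 9.12 FPKM in WT and at 13.8 and 8.85 FPKM in Brg1LKO livers. The Brg1LKO livers enclosed the WT livers, and the log2 fold change was 0.19 (SE 0.35, unadjusted p = 0.59, limma adjusted p = 1.00). *Nfkbib* (IkB beta) was at 7.67 and 6.84 FPKM in WT and at 11.7 and 8.32 FPKM in Brg1LKO livers, whereas *Nfkbie* (IkB epsilon) was at 0.388 and 0.346 FPKM in WT and at 0.206 and 0.307 FPKM in Brg1LKO livers. *Nfkbib* was the one higher and *Nfkbie* the one lower in both Brg1LKO livers. *Tnfaip3*, which encodes A20, an enzyme that shuts off TRAF6 and RIPK1 signaling (chr10:19000929-19015376, minus strand, 7 exons), was at 2.69 and 0.624 FPKM in WT and at 2.87 and 0.722 FPKM in Brg1LKO livers.

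*Tnfaip3* thus differed 4.32-fold between the WT livers and 3.97-fold between the Brg1LKO livers, and 1.08-fold between the genotype means. Its promoter window is the one shown above with matches at 125 and 12 bases before the start. Replicate 1 was more than 1.5-fold above replicate 2 in both genotypes for 4 of the 42 genes (*Tnfaip3*, *Tlr2*, *Irak3* and *Il1r1*). All 4 were among the 35 tested (11.4%), beside 0.769% of all genes tested. The opposite held for 2 of the 42 (*Ly96* and *Ikbkg*), which were 5.71% of the 35 tested, and for 7.04% of all genes tested. Over all genes tested the livers numbered 1 were lower than those numbered 2, by a median of -0.27 in WT and -0.30 in Brg1LKO on the log2 scale. With median-ratio rescaling, 5 of the 42 genes (these 4 and *Il1b*) were higher in replicate 1, beside 2.15% of all genes tested, and none was higher in replicate 2, beside 1.95%. *Irak3*, which encodes IRAK-M, a brake on the kinase relay, was at 1.52 and 0.703 FPKM in WT and at 2.11 and 0.965 FPKM in Brg1LKO livers. The acute phase genes *Saa1* and *Lcn2*, both known NF-kB targets, and the endotoxin co-receptor *Cd14* were chosen after their values were seen, for the same order of livers. *Saa1*, which has a near-identical copy in *Saa2*, was at 3111 and 241 FPKM in WT and at 3030 and 733 FPKM in Brg1LKO livers. *Lcn2* was at 842 and 116 FPKM in WT and at 1175 and 337 FPKM in Brg1LKO livers, and *Cd14* at 8.20 and 2.72 FPKM in WT and at 25.1 and 3.72 FPKM in Brg1LKO livers. In *Saa1*, *Lcn2* and *Cd14* both livers numbered 1 stood above both livers numbered 2. Among other NF-kB targets, *C3*, *Csf1* and *Ier3* did not follow this order, and how many did was not counted. The labels give no meaning to the number, and this order of livers was not tested.

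**Figure D4:**
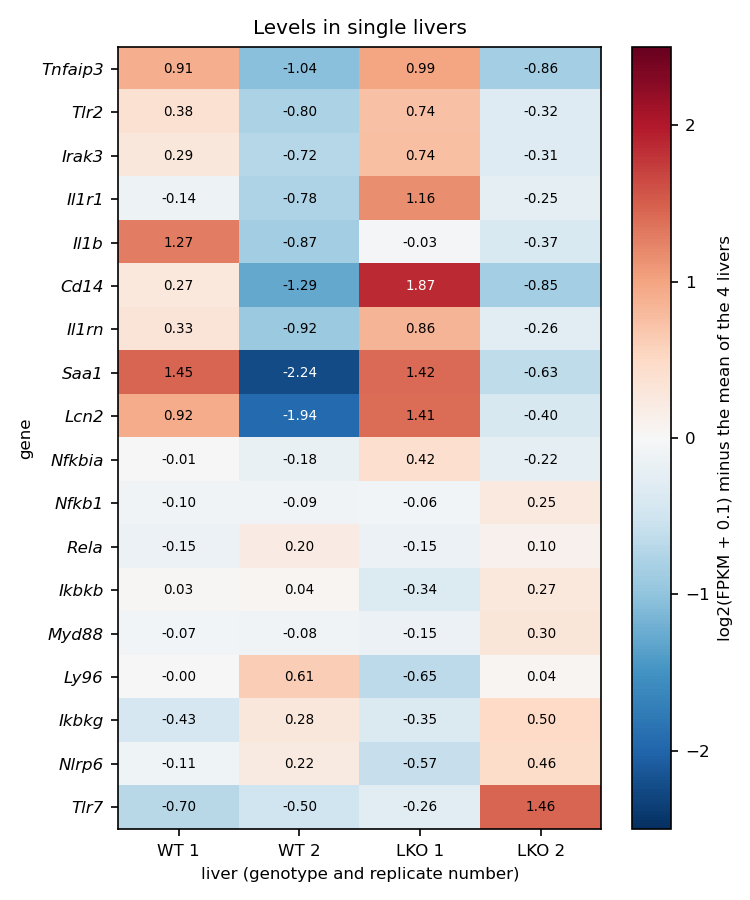
Log2(FPKM + 0.1) of 18 genes in each liver minus the mean of the 4 livers (color and printed value, rows are genes and columns are livers). *Tnfaip3*, *Tlr2*, *Irak3*, *Cd14*, *Saa1* and *Lcn2* are above 0 in both livers numbered 1 and below 0 in both livers numbered 2, and *Tlr7* is above 0 in Brg1LKO replicate 2 alone.

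Of the 7 inflammasome genes, 5 were tested and none was called. For 1 of the 5 (*Pycard*) the groups did not overlap, beside 20.7% of all genes tested. *Nlrp12*, a sensor known as a brake on NF-kB, was at 12.1 and 9.86 FPKM in WT and at 9.15 and 10.4 FPKM in Brg1LKO livers, with a log2 fold change of -0.16 (SE 0.33, unadjusted p = 0.64, limma adjusted p = 1.00). *Nlrp6*, a sensor best known from the gut epithelium, ranged from 3.28 to 6.78 FPKM, with both extremes in Brg1LKO livers. *Gsdmd*, the gene of gasdermin D, was at 3.37 and 3.84 FPKM in WT and at 2.096 and 3.55 FPKM in Brg1LKO livers, with overlapping groups. *Pycard*, the adaptor ASC, was at 0.114 and 0.116 FPKM in WT and at 0.118 and 0.255 FPKM in Brg1LKO livers. Its values step as 1, 1, 1 and 2 whole reads, or a multiple of them. The groups are thus apart only because library totals differ between WT replicate 2 and Brg1LKO replicate 1. The log2 fold change of 0.37 (SE 0.39, unadjusted p = 0.35, limma adjusted p = 1.00) rests on Brg1LKO replicate 2. Without that liver the log2 fold change was 0.02. *Casp1* was at 0.132 and 0.167 FPKM in WT and at 0.145 and 0.331 FPKM in Brg1LKO livers, which overlapped. *Nlrp3*, the best-studied sensor, was at 0.132 and 0.0249 FPKM in WT and at 0.0923 and 0.0788 FPKM in Brg1LKO livers, and its ratio of reads per depth was 1.09 (exact 95% interval 0.725 to 1.63). For *Casp4*, caspase-11 of the mouse, the ratio was 1.03 (exact 95% interval 0.590 to 1.79), and both intervals cover counting error only.

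Of the cytokines, none separated the groups, and the receptors were the more abundant side. *Il1b* was at 3.53 and 0.720 FPKM in WT and at 1.37 and 1.06 FPKM in Brg1LKO livers, so both Brg1LKO values lay between the WT values. The exons of *Il1b* overlap an antisense gene, *Il1bos*. *Il18* lay between 0.638 and 0.874 FPKM in all 4 livers. *Tnf* had 6 and 6 reads in WT livers and 0 and 8 reads in Brg1LKO livers, a ratio per depth of 0.711 (exact 95% interval 0.252 to 1.89, counting error only). With so few reads only a large difference could be detected. A count of 0 allows up to 3 reads.

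*Il1r1*, the signaling receptor of IL-1 (chr1:40266586-40316201, plus strand, 11 exons), was at 15.6 and 9.97 FPKM in WT and at 38.6 and 14.5 FPKM in Brg1LKO livers. Brg1LKO replicate 1 was the highest liver and Brg1LKO replicate 2 lay between the WT livers. The log2 fold change was 0.92 (SE 0.44, unadjusted p = 0.055, limma adjusted p = 1.00), and it was 0.21 without Brg1LKO replicate 1. Without Brg1LKO replicate 2 (1.62) or WT replicate 1 (1.24) the gene was called. *Tnfrsf1a* was at 11.7 and 11.0 FPKM in WT and at 11.5 and 13.9 FPKM in Brg1LKO livers, with overlap. *Tnfrsf1b*, the TNF receptor found mainly on immune and endothelial cells, was at 2.89 and 3.10 FPKM in WT and at 4.97 and 3.28 FPKM in Brg1LKO livers, apart by a small step.

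**Figure D5:**
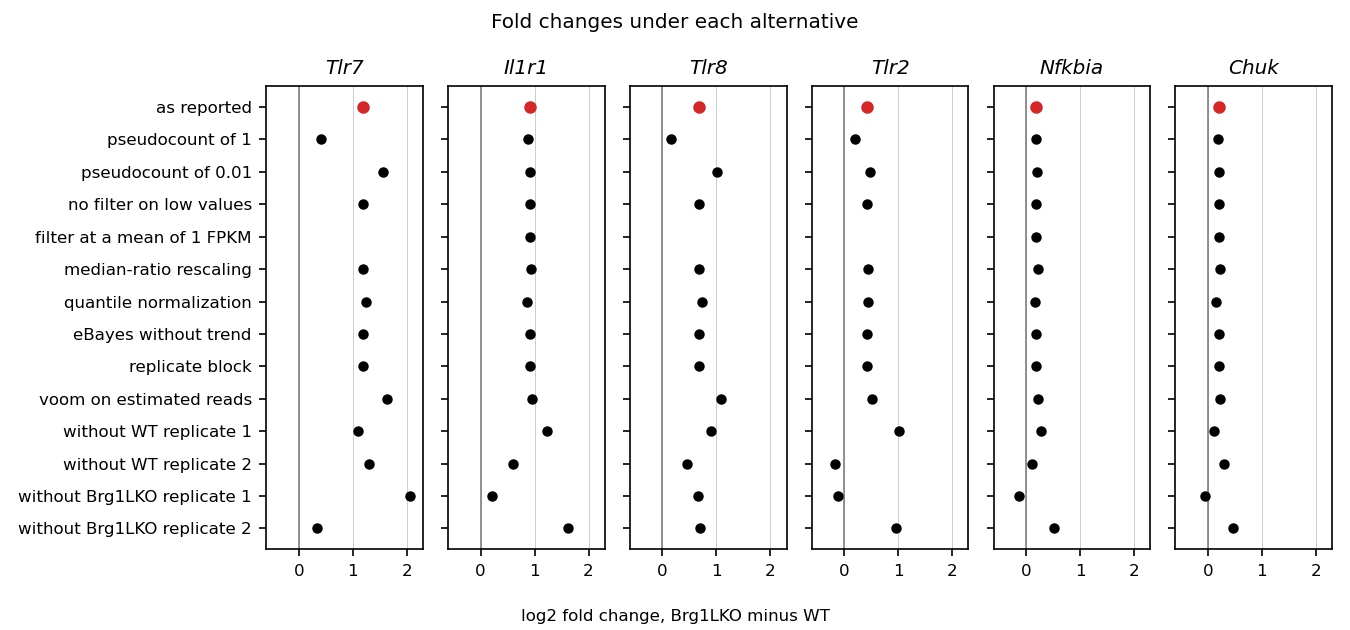
Log2 fold change (x axis, Brg1LKO minus WT) of 6 genes as reported (red) and under each alternative setting or with 1 liver left out (black, y axis). *Tlr7* ranges from 0.34 to 2.06 and *Il1r1* from 0.21 to 1.62 as livers are left out, and the vertical line marks 0. No value is drawn where a gene fell below the filter of that setting.

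In a list of 69 other genes of the pathway, 58 were tested, 1 was called higher and none lower, beside the 0.980% of all genes given above. This was *Hsp90b1*, the endoplasmic reticulum chaperone that folds Toll-like receptors, at 214 and 146 FPKM in WT and 220 and 642 FPKM in Brg1LKO livers. Its log2 fold change of 1.09 (SE 0.44, unadjusted p = 0.026, limma adjusted p = 1.00) was 0.32 without Brg1LKO replicate 2, the liver that stood out for *Tlr7*, and 0.82 without WT replicate 2, and the call was lost in both cases. Groups did not overlap for 15 of the 58 (25.9%; 11 higher, 4 lower), beside 20.7% of all genes tested, and the median log2 fold change was 0.10. After rescaling the share of all genes was up to 29.4%, and that of the 58 was not counted. *Ticam2*, the bridging adaptor of TLR4 to TRIF, was at 1.98 and 1.25 FPKM in WT and at 3.12 and 2.44 FPKM in Brg1LKO livers, with a log2 fold change of 0.77 (SE 0.36, unadjusted p = 0.049, limma adjusted p = 1.00), under the 2-fold threshold. Its exons overlap *Tmed7* on the same strand, and those of *Hsp90b1*, *Tirap* and *Irf7* overlap other genes too, so their reads are partly uncertain. *Tirap*, the bridging adaptor of TLR2 and TLR4 to MyD88, was at 4.33 and 4.25 FPKM in WT and at 4.78 and 6.13 FPKM in Brg1LKO livers. On the lower side were *Tradd* and *Traf2*, adaptors of TNF receptor signaling, and *Otulin*, a deubiquitinase that restrains NF-kB, with log2 fold changes of -0.32 (SE 0.34), -0.24 (SE 0.34) and -0.28 (SE 0.33). As livers were left out these ranged from -0.51 to -0.13, from -0.42 to -0.055 and from -0.45 to -0.11, and none of the 3 was called. *Irf7*, a transcription factor that acts downstream of TLR7 and was chosen after its values were seen, was at 6.29 and 8.57 FPKM in WT and at 6.83 and 26.2 FPKM in Brg1LKO livers.

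Of 40 textbook NF-kB target genes outside the 42, 26 were tested and none was called in limma, while 2 had an unadjusted p under 0.05. These 2 pointed in opposite directions. *Ier3*, a stress response gene, was at 1.02 and 1.06 FPKM in WT and at 0.826 and 0.304 FPKM in Brg1LKO livers, with a log2 fold change of -0.90 (SE 0.41, unadjusted p = 0.046, limma adjusted p = 1.00). This was -0.30 without Brg1LKO replicate 2 and -1.49 without Brg1LKO replicate 1, each with a lone Brg1LKO liver. *Ccl5*, a T cell chemokine outside the naming rule, had 6 and 8 reads in WT and 11 and 26 reads in Brg1LKO livers, with a log2 fold change of 0.95 (SE 0.41, unadjusted p = 0.035, limma adjusted p = 1.00). Groups did not overlap for 5 of the 26 (19.2%; 3 higher, 2 lower), beside 20.7% of all genes tested, and the median log2 fold change was 0.10. *C3*, the central complement protein, was at 1019 and 808 FPKM in WT and at 1040 and 1408 FPKM in Brg1LKO livers. *Csf1*, the growth factor of macrophages, was at 1.95 and 2.78 FPKM in WT and at 1.76 and 1.73 FPKM in Brg1LKO livers, on the lower side. *Ccl20* and *Csf2* were at 0 in all 4 livers.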

How the data were processed

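Liver RNA of 2 WT and 2 Brg1LKO mice was sequenced. The authors deposited FPKM, with no normalization between libraries stated. Per the study's methods the reads were trimmed with Trimmomatic, mapped to GRCm38 with HISAT2 and summarized with Cufflinks, while the submitters' processing notes name HISAT2 2.0.4 and StringTie 2.1.4. The methods describe stranded libraries, the labels a BGIseq protocol, and whether strand was used is not given in the sources used here, so overlapping genes are uncertain. The total of each library, 72599106 to 80935546 reads, was estimated from the steps of low FPKM values, of which 88.4% to 89.5% lay within 0.1 of a whole read, with transcript lengths from GENCODE M21.

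The test was limma 3.58.1 in R 4.3.3 on log2(FPKM + 0.1), with eBayes and its trend option, for genes that averaged 0.1 FPKM or more over the livers. This scale understates changes of low genes. Adjusted p-values are Benjamini-Hochberg over all 12346 genes tested. Permuting 2 livers against 2 cannot give a p below 0.333. Alternatives were other pseudocounts, filters and scalings, no trend, a replicate block, voom on estimated reads, and each liver left out. The procedure was tested on simulated data. In all, 27 symbols turned into dates were restored, and 2 listed genes stood under an older symbol. The 42 genes and the other lists were chosen with earlier results of these data known. Named were all 42 genes, *Smarca4*, other pathway or target genes that were called, the 3 largest rises and falls in each of these lists with groups apart and a higher group mean of at least 1 FPKM, and the highest marker of each list; full statistics went to members called, apart by over 1.5-fold, or highest in their role.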

Additional observations from a re-analysis of the deposited data

How the results depend on the processing

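*Smarca4* stayed lower throughout, from -1.56 to -1.44 on the log2 scale as livers were left out, and at -0.85 with a pseudocount of 1, under the 2-fold threshold. The genes called in the whole table numbered 18 with a pseudocount of 1, 80 without a filter on low values, 68 when genes under a mean of 1 FPKM were dropped, and 73 to 557 with 1 liver left out. Of the 42 genes, limma called 0 with the pseudocount of 1, the filter at 1 FPKM, no filter, or median-ratio rescaling, and 1 to 2 with 1 liver left out. Those called were *Il1r1* without WT replicate 1, *Il1b* without WT replicate 2, *Tlr7* without Brg1LKO replicate 1, and *Il1r1* and *Tnfaip3* without Brg1LKO replicate 2. The larger pseudocount of 1 left *Tlr7* at 0.41. Above the filter at 1 FPKM, 5 genes did not overlap between groups and *Tlr2*, *Tlr7*, *Tlr8*, *Tlr13*, *Pycard* and *Ier3* gave no value. The median of the tested genes was 0.10 with a pseudocount of 1, 0.19 with voom on estimated reads, and 0.058 to 0.155 with 1 liver left out, where the median of all genes ranged from -0.17 to 0.12. Of the other pathway genes, 0 were called without a filter, with median-ratio rescaling and with quantile normalization, and 0 to 3 with 1 liver left out. Of the NF-kB targets, 2 were called with a pseudocount of 0.01 (*Ier3* and *Ccl5*), 1 with voom (*Cxcl9*), and 0 to 4 with 1 liver left out. Signs turned for *Chuk* (range -0.055 to 0.46) and *Nfkbia* (-0.13 to 0.51) without Brg1LKO replicate 1, for *Irak1* (-0.077 to 0.43) without Brg1LKO replicate 2, and for *Tlr2* (-0.17 to 1.01) without WT replicate 2 or Brg1LKO replicate 1. No other fold change recomputed this way changed sign. The cause of these changes was not tested. A lone liver was assumed to vary like the other group.

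Replicate numbers are shared by the labels only, and the deviations of livers with the same number correlated at 0.031 over genes. The livers numbered 1 were lower in both genotypes, by a median of -0.27 in WT and -0.30 in Brg1LKO on the log2 scale. With the number as a block, 108 genes were called in the whole table, 1 of the 42 (*Tlr7*), 1 of the other pathway genes (*Cd14* in place of *Hsp90b1*) and 1 NF-kB target (*Lcn2*). Depth limited *Tnf* and *Tlr9* to 8 reads or fewer in every liver.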

Other observations

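Markers of other liver and immune cell types gave these summed levels, in the order of WT replicates 1 and 2 and Brg1LKO replicates 1 and 2. The 12 neutrophil markers, led by *S100a9*, summed to 11.8, 4.50, 16.8 and 8.35 FPKM, so that both livers numbered 1 were above both livers numbered 2, the order seen for *Tnfaip3*. *S100a9* alone had a mean of 7.51 FPKM over the livers. Of the 12 markers 6 were tested, and 3 and 5 were at 0 in WT replicates 1 and 2, beside 0 in each Brg1LKO liver. *Ly6g*, the defining marker of neutrophils, had 1, 0, 4 and 1 reads. The 10 sinusoidal endothelial markers, led by *Pecam1*, summed to 39.5, 39.8, 30.0 and 40.6 FPKM, and the 10 stellate cell markers, led by *Ecm1*, to 102, 129, 97.1 and 124 FPKM. The 6 cholangiocyte markers, led by *Spp1*, summed to 4.10, 4.67, 3.21 and 3.52 FPKM. Lymphocyte markers were near the floor: the 7 T cell markers (highest *Lck*) summed to 0.485, 0.492, 0.458 and 1.21 FPKM, the 6 B cell markers (highest *Cd22*, with *Pax5* at 0 in all livers) to 0.196, 0.380, 0.260 and 0.597 FPKM and the 7 NK cell markers (highest *Nkg7*) to 0.0949, 0.193, 0.178 and 0.326 FPKM. The 8 dendritic cell markers, led by *Zbtb46*, summed to 0.943, 1.09, 0.834 and 0.945 FPKM. Of the hepatocyte markers, 9 of 10 were matched in the table, and they summed to 23861, 19129, 20216 and 23017 FPKM with *Alb* the highest. Few lymphocyte and dendritic cell markers passed the filter. Tested were 3 of the 7 T cell, 1 of the 6 B cell and 3 of the 8 dendritic cell markers. Of the 7 NK cell markers 0 were tested, so no call was possible there. None of these lists other than the macrophage list held a gene called in limma. Unadjusted p-values under 0.05 were likewise absent from them, and their part in the levels of the 42 genes was not tested.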
